A study of Mus musculus with 29 samples.

Results

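A set of 9 genes that mark cancer-associated fibroblasts (CAFs) was followed through the bulk RNA-seq libraries of a mouse model of gastric cancer (GC) peritoneal dissemination. They were Fap, Pdpn, Acta2, Postn, Pdgfra, Pdgfrb, Thy1, Tnc and Thbs2, taken by their symbols, which are 9 of the 24421 genes of the count table. All 9 had counts in every library. The model was made by injecting YTN16 cells, a mouse GC cell line, into the peritoneal cavity of female C57BL/6J mice of 5 to 6 weeks of age, and each library came from a separate mouse. Untreated mice received PBS, and treated mice received antibodies that block immune checkpoints, which are the brakes on T cells: anti-PD1 at 10 mg/kg, anti-CTLA4 at 5 mg/kg, or both (dual ICI). The 3wk groups (day 21, injections on days 5, 8 and 12) held 5 untreated and 5 dual ICI mice. At 5wk (day 35, further injections on days 21 and 28) there were 5 untreated, 5 anti-PD1 and 4 anti-CTLA4 mice (the fifth mouse of that group died before autopsy), and of the dual ICI mice 2 were uncured and 3 cured. The labels give treatment and day. The outcome of the dual ICI mice at 5wk came from the study's own mouse numbers, with mice 1 and 5 uncured and mice 2, 3 and 4 cured. This assumes that the replicate numbers of the libraries are those mouse numbers, which the labels do not state, and every value for cured or uncured mice rests on it. The group of all 5 is given beside that split. The RNA was from stripped peritoneum with or without nodules, so a library could hold tumor, peritoneal stroma and abdominal wall muscle. Library totals ran from 25989217 to 31219650 counts, with a median of 28625462.

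CAFs are the fibroblasts of a tumor. They lay down and remodel matrix, contract it, and secrete growth factors and cytokines, and in the peritoneum they can arise from resident fibroblasts, from mesothelial cells and from pericytes. The 9 markers differ in what they encode. Tnc (tenascin C), Postn (periostin) and Thbs2 (thrombospondin 2) encode secreted proteins of the matrix that bind integrins or other receptors and are made at sites of wounding and in tumor stroma. Pdgfra and Pdgfrb encode the receptor tyrosine kinases for platelet-derived growth factors, the former typical of fibroblasts and the latter also of pericytes. Fap (a serine protease of the cell membrane), Pdpn (podoplanin, a mucin-type glycoprotein that binds CLEC-2) and Thy1 (CD90, a GPI-anchored glycoprotein) encode surface proteins, and Acta2 encodes smooth muscle actin, the contractile actin of myofibroblasts. None belongs to fibroblasts alone: Thy1 is abundant in mouse T cells, Pdpn in mesothelium and lymphatic endothelium, and Acta2 in smooth muscle and pericytes. In bulk tissue, fewer cells of a type and less RNA per cell cannot be told apart.

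The tissue behind the libraries was uneven. All samples were labelled as tumor. Genes of gastric epithelium (18 genes, led by Krt8) took 0.466%, 0.113%, 0.454%, 0.447% and 0.428% of the counts in the 5 untreated mice at 5wk and 0.528% and 0.632% in the uncured mice. In the cured mice they took 0.00934%, 0.00437% and 0.00234%, with 4 to 6 of the 18 genes at 0. The markers of the labelled tumor were thus near absent from the cured mice. Skeletal muscle genes (17 genes, led by Myh4) took 23.7%, 22.3% and 22.1% of the counts in the cured mice, against 6.89%, 20.9%, 8.40%, 13.7% and 6.04% in the untreated mice at 5wk and 7.90% and 5.58% in the uncured mice. A single anti-PD1 mouse, mouse 5, had the makeup of the cured mice, with 0.00606% gastric epithelium and 21.9% skeletal muscle. In the study a single anti-PD1 mouse was cured, but no source used here says which library came from it, so mouse 5 stayed in its group, and values without it are given where it weighs. Untreated mouse 2 at 5wk also lay near the cured mice in muscle.

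By GENCODE vM21 on GRCm38, the build the submitters name as mm10, the matrix genes lay at chr4:63959785-64047015 on the minus strand (Tnc), chr3:54361109-54391037 on the plus strand (Postn) and chr17:14665500-14694235 on the minus strand (Thbs2). The receptor gene Pdgfra lay at chr5:75152292-75198215 on the plus strand. The surface protein genes lay at chr2:62500943-62574075 on the minus strand (Fap), chr4:143267431-143299564 on the minus strand (Pdpn) and chr9:44043384-44048579 on the plus strand (Thy1), and Acta2 at chr19:34241090-34255590 on the minus strand. The counts are over all exons of a gene. Exons of Pdgfra overlap those of Gm42802 and Gm42803 on the other strand and of Mir7025 on its own, and exons of Tnc overlap 8030451A03Rik on the other strand. Whether the counting used strand is not given in the sources used here, so reads of these neighbors could not be told apart from those of Pdgfra and Tnc.

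In the RefSeq promoter table for GRCm38.p6, 6 of the 9 genes were matched by symbol, and Pdgfrb was not looked up. The start given there for Acta2 lay inside the GENCODE gene and is not used. The 250 bases before the start are printed for 3 genes that show both directions in the cured mice, where the matrix genes Tnc and Postn were lower and the receptor gene Pdgfra was higher. Capitals mark the motif TATAAA, searched on both strands.
Tnc, chr4:64047016-64047265, minus strand: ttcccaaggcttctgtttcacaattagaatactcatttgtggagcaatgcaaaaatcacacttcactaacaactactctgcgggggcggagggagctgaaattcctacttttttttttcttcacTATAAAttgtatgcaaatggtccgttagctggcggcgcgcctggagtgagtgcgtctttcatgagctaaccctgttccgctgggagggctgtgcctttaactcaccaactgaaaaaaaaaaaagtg
Postn, chr3:54360857-54361106, plus strand: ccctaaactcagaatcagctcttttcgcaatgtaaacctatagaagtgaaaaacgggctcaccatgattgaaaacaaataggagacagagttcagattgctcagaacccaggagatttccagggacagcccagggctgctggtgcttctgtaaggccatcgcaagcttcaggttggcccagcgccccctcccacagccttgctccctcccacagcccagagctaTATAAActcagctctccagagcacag
Pdgfra, chr5:75152001-75152250, plus strand: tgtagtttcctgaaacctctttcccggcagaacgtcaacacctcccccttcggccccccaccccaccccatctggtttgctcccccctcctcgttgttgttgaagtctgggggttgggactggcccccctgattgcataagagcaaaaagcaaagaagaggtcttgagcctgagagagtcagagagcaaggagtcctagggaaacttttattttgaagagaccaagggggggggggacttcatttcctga
In Postn the TATAAA began 26 bases before the start and in Tnc 126 bases before it. Thbs2 held it on the other strand, also 126 bases before the start. Of 32851 promoter windows of the same length, 12.4% held TATAAA. The Pdgfra window held none of the 4 motifs searched, which were TATAAA, the AP-1 motif TGANTCA (in 6.75% of windows), the TEAD motif GGAATG (12.6%) and the CArG box of serum response factor (1.47%). A match describes letters and is not evidence of a bound factor.

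Levels are given as counts per 1000000 counts (CPM) on library sizes scaled by TMM, a normalization that holds the bulk of genes level between libraries. Per kilobase of exon, so that genes can be compared, the mean level over all 29 mice was highest for Acta2 (39.7 CPM per kb) and Postn (38.5), followed by Thbs2 (33.6), Tnc (31.8), Pdpn (27.5) and Thy1 (24.1). The receptors were lower, at 14.6 for Pdgfrb and 10.7 for Pdgfra, and Fap was the lowest at 5.17 CPM per kb. The spread between mice was of another order. Tnc had the widest, with a highest level 66.9 times its lowest and a coefficient of variation of 65.3%. Postn followed at 43.5%, Pdgfra at 34.0% and Fap at 33.3%, whereas Acta2 varied by 17.7% and Pdgfrb by 11.1%, with a highest level only 1.64 times the lowest. Among the 54 pairs of neighboring groups in the order of group means (6 for each gene), 50 had overlapping ranges. The 4 that did not overlap all had the cured mice as the lower group: Fap in untreated 3wk, Postn in untreated 5wk, Thy1 in dual ICI 3wk and Tnc in untreated 5wk each lay wholly above them. The gap was slight for Fap (30.2 against 30.03 CPM) and Thy1 (61.63 against 61.58 CPM). This count was not made over all genes, of which 47.2% did not overlap between cured and untreated mice at 5wk.

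**Figure D1:**
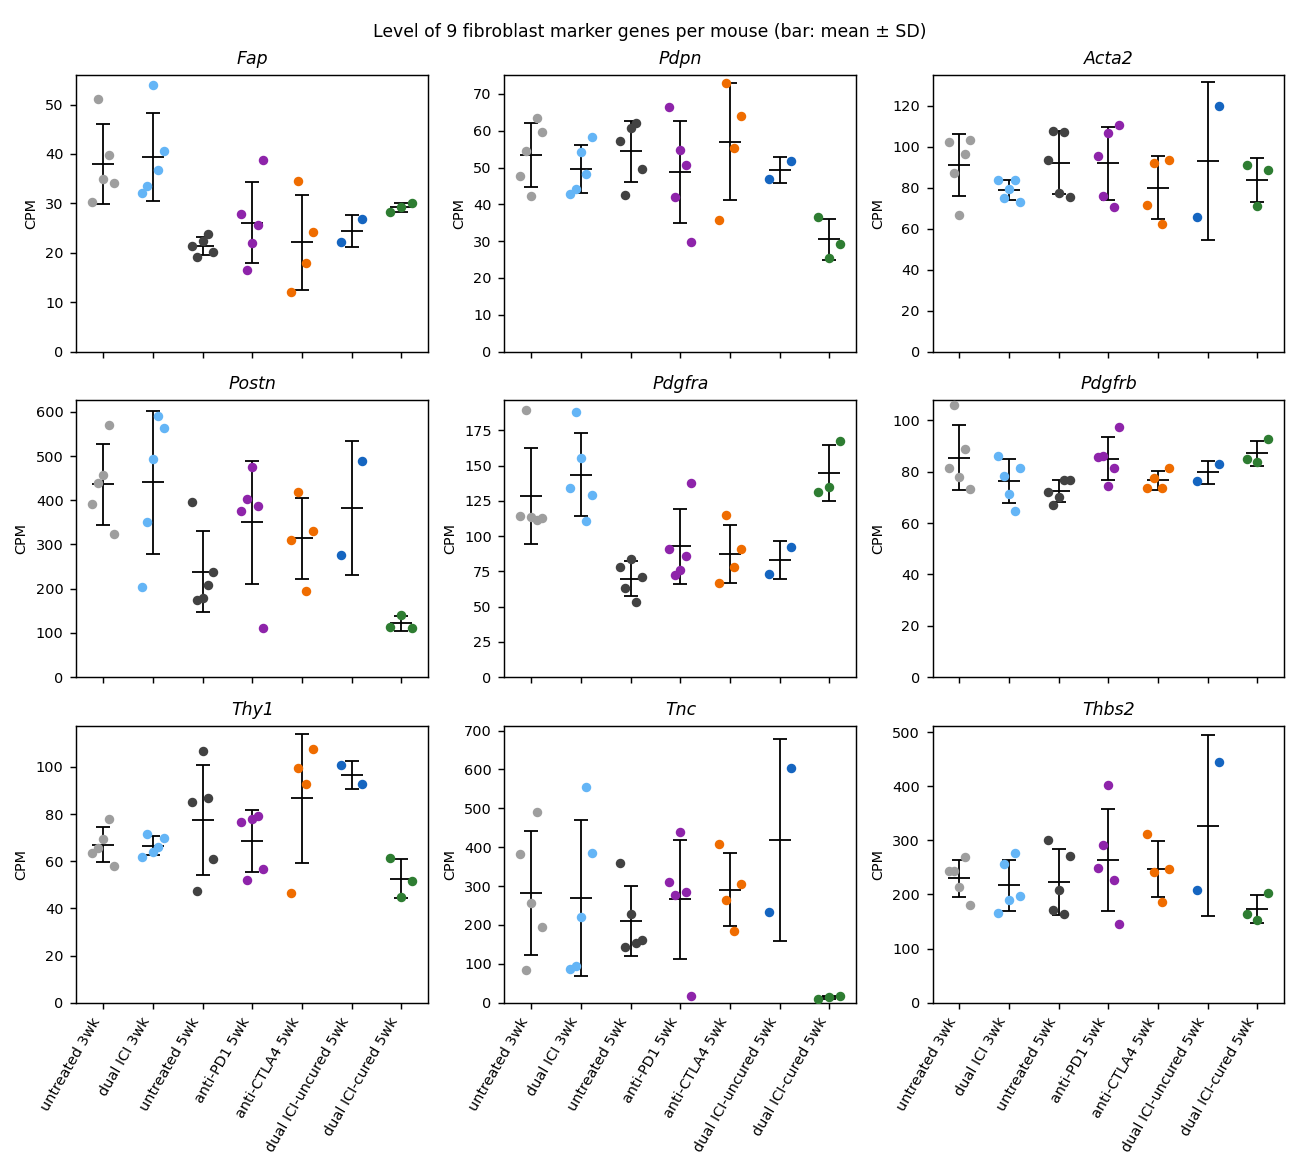
Level of each of the 9 markers (y axis, CPM on TMM-scaled library sizes, from 0) in each mouse by group (x axis, 7 groups of treatment, day and outcome); points are mice and bars are the group mean ± SD. The cured mice were the lowest group for Tnc, Postn, Thbs2, Pdpn and Thy1 and the highest at 5wk for Pdgfra and Fap, while Acta2 and Pdgfrb stayed within a narrow range throughout; on raw library totals the cured mice overlapped the untreated mice at 5wk for Pdgfra and Fap and lay below them for Acta2.

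A total of 9 comparisons was made with edgeR's quasi-likelihood test over all genes, and a gene was called at a Benjamini-Hochberg adjusted p under 0.05. In cured against untreated mice at 5wk, 5 of the 9 markers were called (2 higher, 3 lower), where 44.7% of all genes tested were called, and 6 had levels that did not overlap between the groups, where 47.2% of all genes did not. In uncured against cured mice, 6 were called (5 higher, 1 lower) against a background of 70.0%, and 8 did not overlap against 81.1%. These shares are close to the background, so the count of markers says little, while their direction and size differ from gene to gene. In untreated mice at 5wk against 3wk, 3 were called, all lower, against a background of 10.8%, and 2 did not overlap against 11.2%. The other 6 comparisons called none of the 9. The comparisons at 5wk share the untreated or the cured mice, so that they are not independent of each other. Libraries of 3wk and 5wk were also separate numbered series of samples, so that time and series cannot be told apart.

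The scaling matters for the cured mice. Their TMM factors were 0.698, 0.730 and 0.725, so that TMM raises their values relative to raw library totals. The median log2 fold change of all genes in cured against untreated mice was -0.05 with TMM and -0.64 on raw totals, and in uncured against cured mice it was 0.05 with TMM, 0.12 with upper-quartile scaling and 0.84 on raw totals. The split of calls moved with it, from 2848 higher and 4219 lower genes to 1187 and 7386 in the former comparison, and from 5831 and 5232 to 10127 and 2314 in the latter. Raw totals moved the median by less elsewhere, to -0.22 for all 5 dual ICI mice, 0.19 for uncured mice and 0.11 for untreated mice at 5wk against 3wk. Where the call of a marker depends on this choice it is stated beside the gene.

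Tnc changed most. Its level in the cured mice was 9.01, 14.7 and 16.9 CPM, and in the untreated mice at 5wk it was 360.2, 144.5, 228, 154 and 161 CPM. The uncured mice had 234 and 603 CPM. The cured mice lay far below both other groups with no overlap. In the fit Tnc was 15.2-fold lower in cured than in untreated mice (log2 fold change -3.92 ± 0.40 SE, edgeR adjusted p = 0.000175) and 30.3-fold higher in uncured than in cured mice (4.92 ± 0.41, edgeR adjusted p = 1.05e-05). The latter log2 fold change was 4.07 without uncured mouse 5 and 5.45 without uncured mouse 1. Raw totals left both calls in place, with log2 fold changes of -4.56 in cured against untreated and 5.70 in uncured against cured mice. Among the monotherapies, Tnc was 310.3, 276, 439.8, 284 and 17.8 CPM with anti-PD1 and 409, 265, 184 and 306 CPM with anti-CTLA4. The lowest of these, 17.8 CPM, belonged to anti-PD1 mouse 5 and lay within reach of the cured mice, while the other 8 mice overlapped the untreated mice. At 3wk Tnc was 382, 85.3, 257, 491 and 194.5 CPM in untreated and 86.9, 94.1, 220.1, 555 and 385 CPM in dual ICI mice, both groups spanning low and high mice.

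Postn had the second widest spread and the same order of outcomes. Cured mice had 114, 141 and 110.1 CPM, untreated mice at 5wk 395, 174, 178, 209 and 237 CPM and uncured mice 275 and 489 CPM. All 3 cured mice were below all others at 5wk except anti-PD1 mouse 5, at 112 CPM in a group of 375, 402, 474, 388 and 112 CPM. Postn was 1.93-fold lower in cured than in untreated mice (log2 fold change -0.94 ± 0.29 SE, edgeR adjusted p = 0.0245), a call that was lost without cured mouse 2, 3 or 4 (adjusted p = 0.0872, 0.0514 and 0.0953). It was 3.09-fold higher in uncured than in cured mice (1.63 ± 0.23, edgeR adjusted p = 0.000239). On raw totals these were -1.57 and 2.41, both called. With anti-CTLA4 the level was 311, 419, 195.5 and 330.2 CPM. At 3wk Postn was 390.4, 439, 457, 569 and 323 CPM in untreated and 204, 350.5, 492, 590.3 and 564 CPM in dual ICI mice. Untreated mice at 5wk were thus lower than untreated mice at 3wk, apart from mouse 1 at 395 CPM, by 1.83-fold (log2 fold change -0.87 ± 0.24 SE, edgeR adjusted p = 0.04004). This call did not hold when any of 8 of the 10 mice was left out in turn (adjusted p from 0.0567 to 0.0858), in the fit of all 29 libraries (0.172) or on raw totals (0.146).

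Thbs2, the third matrix gene, moved less. Cured mice had 164, 152.5 and 203 CPM, against 301, 171, 208, 164 and 270.3 CPM in the untreated mice, and uncured mice had 209 and 445.5 CPM. Cured mouse 2 (163.6 CPM) and cured mouse 3 lay below the lowest untreated mouse (164.0 CPM), and cured mouse 4 lay among the untreated mice. The highest, uncured mouse 5, was the highest of all 29 mice. Thbs2 was 1.86-fold higher in uncured than in cured mice (log2 fold change 0.90 ± 0.28 SE, edgeR adjusted p = 0.0178; 1.68 on raw totals), but 0.23 with adjusted p = 0.264 without uncured mouse 5, and the call was also lost without cured mouse 2 or 3 (adjusted p = 0.0513 and 0.0628). In cured against untreated mice it was not called (-0.34 ± 0.24, edgeR adjusted p = 0.266), although it was on raw totals (-0.97, adjusted p = 0.0323). The 5 anti-PD1 mice, at 249.6, 291, 402, 227 and 146 CPM, again had mouse 5 as their lowest.

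The receptor Pdgfra ran the other way. Its level was 131, 135 and 168 CPM in the cured mice and 78.0, 63.5, 84.0, 53.1 and 71.0 CPM in the untreated mice at 5wk. Uncured mice had 73.5 and 92.4 CPM. Every cured mouse was above every untreated and uncured mouse. Pdgfra was 2.10-fold higher in cured than in untreated mice (log2 fold change 1.07 ± 0.18 SE, edgeR adjusted p = 0.00147) and 1.78-fold lower in uncured than in cured mice (-0.83 ± 0.15, edgeR adjusted p = 0.00112). On raw totals both calls were lost and the groups overlapped, at 0.46 (adjusted p = 0.156) and -0.05 (adjusted p = 0.791), against all-gene medians of -0.64 and 0.84. With anti-PD1 Pdgfra was 90.7, 72.4, 76.2, 86.2 and 138 CPM, with mouse 5 the highest, and with anti-CTLA4 it was 66.5, 115, 78.0 and 90.7 CPM. At 3wk it was 114, 189.7, 113, 112 and 113 CPM in untreated and 134.5, 188, 155, 111 and 129 CPM in dual ICI mice. All untreated mice at 5wk were below all untreated mice at 3wk, by 1.84-fold (log2 fold change -0.88 ± 0.19 SE, edgeR adjusted p = 0.0167), with an adjusted p of 0.0667 on raw totals. With TMM the cured mice thus had levels within the range of mice at 3wk. On raw totals cured mice 2 and 3 lay below that range.

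Pdgfrb was the steadiest of the 9 genes. Over the 7 groups its mean ran from 72.6 ± 4.24 CPM (SD, n = 5) in untreated mice at 5wk to 87.1 ± 4.85 CPM (SD, n = 3) in cured mice. Each cured mouse (84.8, 83.8 and 92.6 CPM) was above each untreated mouse at 5wk (72.2, 67.0, 70.3, 76.7 and 76.9 CPM), but the difference of 1.22-fold was not called (log2 fold change 0.28 ± 0.12 SE, edgeR adjusted p = 0.0830). It was called by DESeq2 (adjusted p = 0.0223), in the fit of all 29 libraries (0.0440) and without untreated mouse 4 (0.0330), and it turned to -0.30 on raw totals (adjusted p = 0.213). Against the uncured mice, at 76.5 and 82.8 CPM, the log2 fold change of uncured over cured mice was -0.16 ± 0.10 and not called, and it turned to 0.63 on raw totals (adjusted p = 0.000392).

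Fap, the protease, followed Pdgfra with smaller differences. Cured mice had 28.3, 29.2 and 30.0 CPM and untreated mice at 5wk 21.4, 19.1, 22.3, 23.8 and 20.1 CPM, with no overlap. Fap was 1.39-fold higher in cured than in untreated mice with TMM (log2 fold change 0.47 ± 0.12 SE, edgeR adjusted p = 0.0134) and turned to -0.11 on raw totals (adjusted p = 0.658), where the median of all genes was -0.64. The call was lost without cured mouse 3 or 4 (adjusted p = 0.0594 and 0.0652) and in the fit of all 29 libraries (0.122). The uncured mice had 22.2 and 26.8 CPM, which lay below the cured mice and was not called (log2 fold change of uncured over cured -0.28 ± 0.12 SE, edgeR adjusted p = 0.0686; -0.43 and 0.0285 without uncured mouse 5). On raw totals uncured mice were higher, by 0.50 (adjusted p = 0.00516). The clearer difference was that between untreated mice at 3wk and 5wk, where time and series cannot be told apart. Fap was 30.2, 51.1, 34.99, 39.8 and 34.0 CPM in untreated mice at 3wk, all above the untreated mice at 5wk, and was 1.78-fold lower at 5wk (log2 fold change -0.83 ± 0.15 SE, edgeR adjusted p = 0.00919; adjusted p = 0.0391 on raw totals). Dual ICI mice at 3wk had 32.01, 33.5, 54.0, 36.7 and 40.7 CPM, much as the untreated mice of that time. With anti-PD1 Fap was 27.9, 16.5, 21.9, 25.6 and 38.7 CPM and with anti-CTLA4 12.0, 34.5, 17.9 and 24.1 CPM, both groups spanning the untreated range.

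Pdpn was lower in the cured mice. Cured mice had 36.6, 25.5 and 29.3 CPM, untreated mice at 5wk 57.1, 42.5, 60.8, 62.1 and 49.6 CPM and uncured mice 46.9 and 51.9 CPM. The cured mice lay below all mice of both groups. Pdpn was 1.76-fold lower in cured than in untreated mice (log2 fold change -0.82 ± 0.17 SE, edgeR adjusted p = 0.00481) and 1.59-fold higher in uncured than in cured mice (0.67 ± 0.14, edgeR adjusted p = 0.00287). Both calls held on raw totals, at -1.42 and 1.46. The remaining groups had means from 48.8 to 57.0 CPM, and anti-PD1 mouse 5, at 29.8 CPM, was the lowest of them.

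Thy1 separated the uncured from the cured mice. Uncured mice had 101 and 92.6 CPM and cured mice 61.6, 44.9 and 51.5 CPM, a difference of 1.80-fold (log2 fold change 0.85 ± 0.13 SE, edgeR adjusted p = 0.000333), and 1.64 on the log2 scale on raw totals. Untreated mice at 5wk ran from 47.6 to 107 CPM and overlapped both. The log2 fold change of cured over untreated mice was -0.53 ± 0.25 and was not called (edgeR adjusted p = 0.103), but it was in the fit of all 29 libraries (0.0485), without untreated mouse 2 (0.0163) and on raw totals (0.0161). Of the T cell list of 10 genes, which do not include Thy1, 9 were called higher in uncured than in cured mice, with a median of 2.25. Of all 15796 genes tested in this comparison 70.0% were called, 5831 of them higher. The part of T cells in the Thy1 difference was not tested.

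Acta2, the contractile marker, differed little between groups. Its group means lay between 78.8 ± 4.95 CPM (SD, n = 5) in dual ICI mice at 3wk and 92.9 ± 38.6 CPM (SD, n = 2) in uncured mice, whose values were 65.6 and 120.1 CPM. Cured mice had 91.1, 71.2 and 88.8 CPM and untreated mice at 5wk 93.6, 107.5, 77.5, 107 and 75.2 CPM. The groups overlapped, and Acta2 was not called in any comparison with TMM. In cured against untreated mice the log2 fold change was -0.12 ± 0.18 SE (edgeR adjusted p = 0.595), and -0.68 on raw totals (adjusted p = 0.00875). In uncured over cured mice it was 0.13 ± 0.23 with TMM (edgeR adjusted p = 0.6375) and 0.91 on raw totals, where it was called (adjusted p = 0.00530). With TMM it was 0.50 (adjusted p = 0.0207) without uncured mouse 1 and -0.39 without uncured mouse 5.

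**Figure D2:**
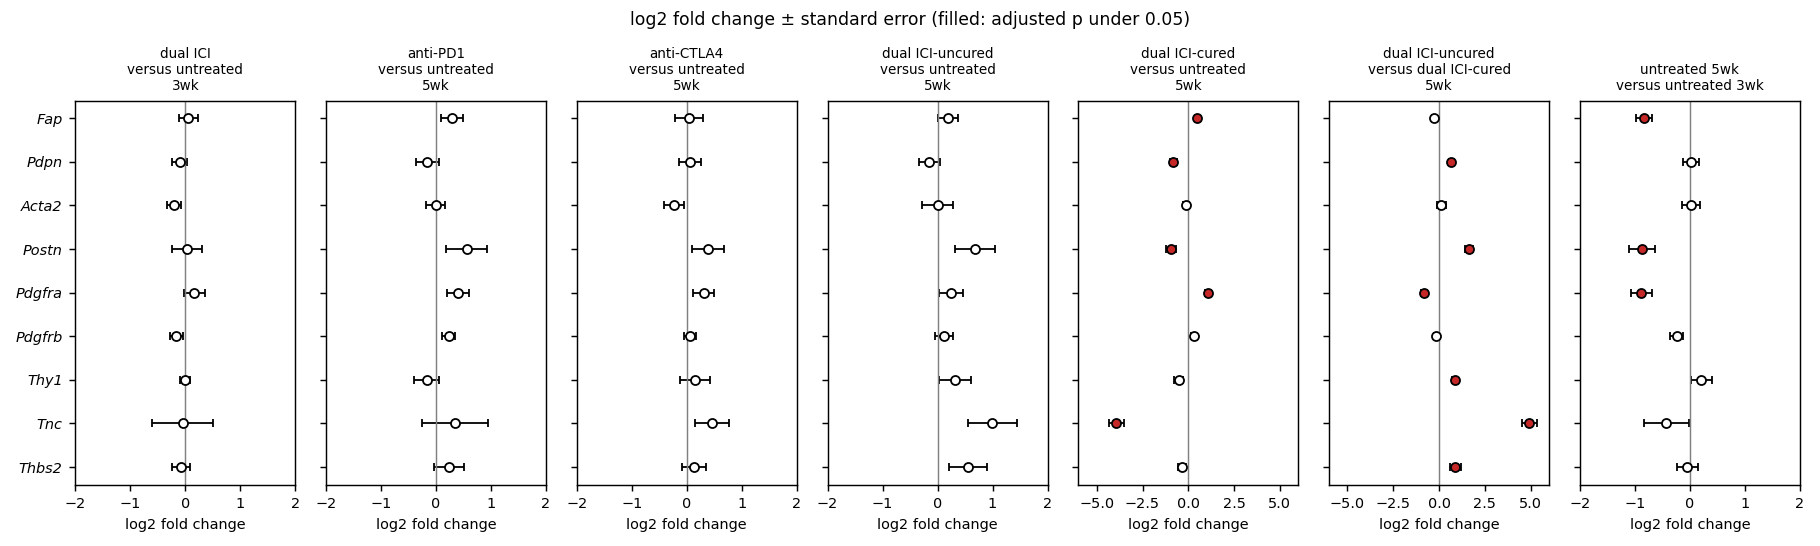
Log2 fold change ± SE of the 9 markers from edgeR (TMM) in 7 comparisons; filled points have an adjusted p under 0.05, and the 2 panels with cured mice have wider axes. Tnc, Postn and Pdpn were lower and Pdgfra and Fap higher in cured than in untreated mice (Fap turned on raw library totals), and none of the markers was called in the comparisons of treated with untreated mice outside the cured group.

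No marker was told apart between dual ICI and untreated mice at 3wk. None of the 9 was called, where 89 of 15503 genes (0.574%) were, and none passed an unadjusted p under 0.05, where 10.7% of genes did. The log2 fold changes lay between -0.21 (Acta2, SE 0.13) and 0.16 (Pdgfra, SE 0.19), and the SE of 0.56 for Tnc leaves room for a wide range. By DESeq2 507 genes were called, and none of the markers. Of the 16 other lists only that of T cells held called genes in this comparison, with 3 of 10 higher (Cd8a by 4.96-fold, Cd8b1 by 5.79-fold and Cd3g by 3.53-fold) and a median log2 fold change of 1.37.

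With all 5 dual ICI mice at 5wk as 1 group, as in the labels, no gene was called by edgeR among 15588 (0%), and 56 were by DESeq2. At an unadjusted p under 0.05, which 6.87% of genes passed, there were 3 markers: Pdgfra at 0.79 ± 0.24, Fap at 0.36 ± 0.13 and Pdpn at -0.52 ± 0.20, each with an edgeR adjusted p of 0.634. On raw totals they were 0.44 ± 0.23, 0.11 ± 0.21 and -0.65 ± 0.38. This group joined the 3 cured and the 2 uncured mice, whose levels did not overlap for 8 of the 9 markers and for 81.1% of all genes.

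The uncured mice against untreated mice at 5wk again gave no called gene by edgeR of 16156 (0%) and 18 by DESeq2. Of the markers, 8 of 9 had a log2 fold change above 0 (the exception, Pdpn, turned above it on raw totals and Acta2 below it by DESeq2), and Tnc was the largest at 1.00 ± 0.44 SE (2.00-fold, edgeR adjusted p = 0.735), the only marker under an unadjusted p of 0.05 where 4.87% of genes were. Postn followed at 0.68 ± 0.37 and Thbs2 at 0.55 ± 0.35. All 3 rested largely on uncured mouse 5. Without it, Tnc was 0.13, Postn 0.18 and Thbs2 -0.12.

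No marker passed the test in either monotherapy against untreated mice at 5wk. With anti-PD1 no gene of 15640 was called by edgeR or DESeq2 (0%), and no marker was among the 205 genes (1.31%) under an unadjusted p of 0.05. The nearest were Pdgfrb (0.23 ± 0.11) and Pdgfra (0.41 ± 0.20), each with an edgeR adjusted p of 1. Without anti-PD1 mouse 5 Pdgfra was 0.21 ± 0.15, while Postn went from 0.55 ± 0.37 to 0.77 ± 0.24 and Tnc from 0.34 ± 0.60 to 0.64 ± 0.28, each with an edgeR adjusted p of 0.995. With anti-CTLA4 no gene of 15781 was called by either tool (0%), and no marker was among the 128 genes (0.811%) under an unadjusted p of 0.05, Pdgfra being nearest (0.31 ± 0.19, edgeR adjusted p = 0.9998). The interaction of dual ICI with time, on all 5 mice a group, called no gene of 16021 by edgeR (0%) and 29 by DESeq2, and Pdgfrb (0.37 ± 0.15, edgeR adjusted p = 0.472, and 0.16 ± 0.25 on raw totals) was the only marker among the 10.3% under an unadjusted p of 0.05.

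The genes around the markers were described from lists, whose counts are to be read against those of all genes tested. In cured against untreated mice 44.7% of all genes tested were called (2848 higher and 4219 lower). In cured against untreated mice, 7 of 12 further myofibroblast CAF genes were called lower and 1 higher, with a median log2 fold change of -1.68 (all genes -0.05; on raw totals 8 lower, 1 higher and -2.37). They included Lrrc15, a membrane protein of CAFs induced by TGF-beta, at -4.24 ± 0.49 (18.9-fold lower), and Col8a1, a short-chain collagen, at -3.43. The exception was Tpm1, a tropomyosin that skeletal muscle also expresses, which was higher at 1.84. Of 12 inflammatory CAF genes, which are cytokines, chemokines, hyaluronan synthases and the acute-phase and complement genes Saa3 and C3, 9 were lower and 1 higher with a median of -1.90, among them Has1 (-2.54) and Il6 (-2.28). The higher gene was Cxcl12 (0.87), a chemokine that retains leukocytes, which was 0.35 and not called on raw totals.

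Genes of resident fibroblasts went the other way with TMM. Of 12, 6 were higher and none lower in cured than in untreated mice, with a median of 0.62, led by Gsn (gelsolin, 1.58) and Clec3b (tetranectin, 1.32). On raw totals the 12 split into 4 higher and 2 lower, with a median of 0.04 against -0.64 for all genes. Fibrillar matrix genes moved little as a list (1 higher, 2 lower of 12, median -0.24; on raw totals none higher and 6 lower). Lox, which cross-links collagen, was lower at -1.30 and Col5a2 at -1.03, while Col6a3 was higher at 0.83, and 0.22 on raw totals.

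Among 11 ligands, integrins and receptors that bind the markers' products, 3 were lower and 2 higher in cured mice (median -0.27; on raw totals 7 lower and none higher). Of the 4 ligands of the PDGF receptors, Pdgfc (-1.61) and Pdgfa (-1.35) were lower in these mice, while Pdgfb (-0.04) and Pdgfd (-0.27) were not called. Cd36, a thrombospondin receptor, was higher at 1.01, and Itgb3, an integrin subunit, was higher at 0.51 but -0.10 on raw totals. Among 11 relatives of the markers, Dpp4, the nearest relative of Fap, was higher at 1.37, Thbs1, the relative of Thbs2, was lower at -2.35, and the cardiac actin Actc1 was higher at 3.16. In all 3 of these were higher and 2 lower, with a median of 0.33 that turned to -0.24 on raw totals.

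The other tissue lists in cured against untreated mice were counted in the same way. Of all genes tested 44.7% were called, and counts near or below that share say little about a list. All 15 gastric epithelium genes tested were lower (median -6.53), and 6 of 17 skeletal muscle genes were higher (median 1.42). Of pericyte genes 4 of 7 were higher and none lower (median 0.66, and 0.07 on raw totals), with Abcc9 at 1.42 and Rgs5 at 1.27. Endothelium had 2 of 9 higher (median 0.31, and -0.19 on raw totals), lymphatic endothelium 2 higher and 1 lower of 5 (median 0.56, and -0.03 on raw totals), smooth muscle 1 higher and 1 lower of 5 (median 0.71) and adipocytes 1 higher of 9 (median 0.73). Mesothelium had 1 higher and 3 lower of 8 (median -0.19), T cells 6 lower of 10 (median -1.16) and macrophages none of 8 (median -0.52; 5 lower on raw totals). The part of these tissues in the differences of the markers was not tested.

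Uncured against cured mice gave the reverse picture, in a comparison that called 70.0% of all genes tested (5831 higher and 5232 lower). The called totals of fibrillar matrix and resident fibroblast genes lay near that share, so their counts say little. Myofibroblast CAF genes had 9 of 12 higher and 3 lower (median 1.80, all genes 0.05), inflammatory CAF genes 9 higher and 1 lower of 12 (median 2.13), and fibrillar matrix 7 higher and 1 lower of 12 (median 0.58). On raw totals, where the median of all genes was 0.84, these were 9 and 2 (median 2.58), 11 and 0 (2.92) and 12 and 0 (1.36), and the lower matrix gene, Col6a3, turned from -0.40 to 0.38 (adjusted p = 0.0321 and 0.0351). Lrrc15 was 35.5-fold higher and Col8a1 16.1-fold higher in uncured mice. Resident fibroblast genes had 1 higher and 7 lower of 12 (median -0.96), and on raw totals 5 and 5.

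In untreated mice at 5wk against 3wk, 10.8% of all genes tested were called. The markers that fell were accompanied by other genes of matrix and resident fibroblasts, but the fall was not particular to these lists. With TMM, the pericyte genes Rgs5 (-1.03) and Cspg4 (-0.58), Tek of endothelium, Gpm6a of mesothelium and Plin1 of adipocytes were called lower too. Of 12 fibrillar matrix genes 6 were lower (median -0.92, all genes 0.02), with Col6a3 at -1.53 and Col3a1 at -1.27, and on raw totals 2 remained called. Of 12 resident fibroblast genes 5 were lower (median -0.94; 4 on raw totals), with Col14a1 at -1.16 and Dpt (dermatopontin) at -1.05. Myofibroblast CAF genes had none lower and 1 higher of 12 (Tagln at 0.67, median 0.38), and inflammatory CAF genes had 2 higher and 1 lower (Saa3 at 2.5035, Cxcl14 at 0.96 and Has2 at -1.08). Dpp4 was lower at -1.60 in the same mice as Fap. Gastric epithelium had 2 of 15 higher with a median of 0.90, and skeletal muscle 1 of 17 lower with a median of -0.37.

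**Figure D3:**
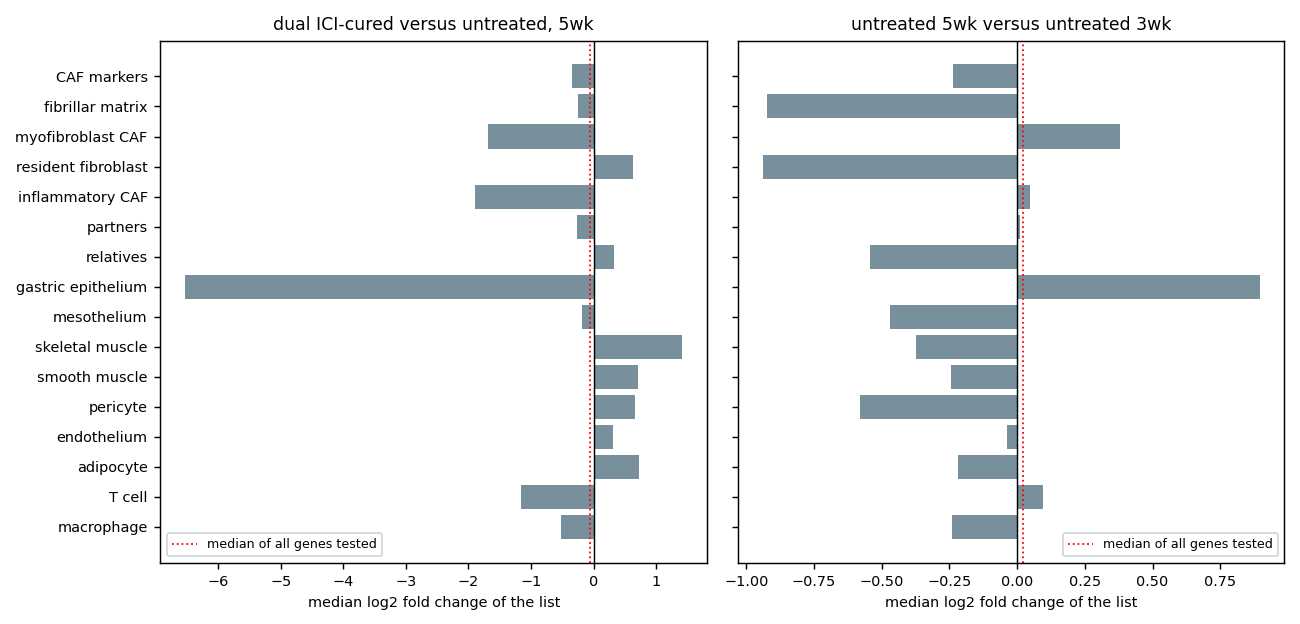
Median log2 fold change (x axis, edgeR with TMM) of the 9 CAF markers and of the 16 other gene lists except lymphatic endothelium (y axis) in cured against untreated mice at 5wk and in untreated mice at 5wk against 3wk; the red dotted line is the median of all genes. In cured mice gastric epithelium (-6.53), inflammatory CAF (-1.90) and myofibroblast CAF genes (-1.68) were lowest and skeletal muscle (1.42) highest, and the medians of relatives and endothelium turned below 0 on raw library totals.

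Within groups the markers also varied with the tissue in the library. For this, log2 CPM was taken after removing the group means, and compared over the 29 mice with a score of each tissue list, with permutation p-values from 100000 shuffles within groups, adjusted over the 22 relations tested. Both the score and the marker come from the same library and share its scaling. Tnc was higher where there was more gastric epithelium (Pearson's r = 0.81, Spearman's rho = 0.65, adjusted p = 0.00631 and 0.0103) and lower where there was more skeletal muscle (r = -0.75, rho = -0.75, adjusted p = 0.00066 for each, permutation). Without the 2 mice farthest from the median score, r was 0.65 and -0.68. Within 3wk (n = 10) r was 0.97 and -0.88, and within 5wk (n = 19) 0.81 and -0.71. Without anti-PD1 mouse 5 the values at 5wk were 0.40 and -0.56, so that much of the relation to gastric epithelium at that time came from that mouse.

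Postn resembled Tnc, with r = 0.68 and rho = 0.54 for gastric epithelium (adjusted p = 0.0404 and 0.0256) and r = -0.65 and rho = -0.59 for muscle (adjusted p = 0.0145 and 0.0158, permutation). Leaving out the 2 farthest mice gave 0.40 and -0.58. Within 3wk r was 0.74 and -0.87, and within 5wk 0.68 and -0.58, falling to 0.26 and -0.34 without anti-PD1 mouse 5. Thbs2 was lower with more muscle (r = -0.72, rho = -0.64, adjusted p = 0.00341 and 0.0103, permutation), and this held without the 2 farthest mice (-0.64), within 3wk (-0.57), within 5wk (-0.76) and without anti-PD1 mouse 5 (-0.68).

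Pdgfra was lower where there was more gastric epithelium (r = -0.61, rho = -0.52, adjusted p = 0.0197 and 0.0152, permutation). It gave -0.58 without the 2 farthest mice, -0.75 within 3wk, -0.60 within 5wk and -0.31 at 5wk without anti-PD1 mouse 5. Pdpn was higher with more gastric epithelium (r = 0.57, rho = 0.52, adjusted p = 0.0404 and 0.0256, permutation) and with more mesothelium (r = 0.52, rho = 0.54, adjusted p = 0.0350 and 0.0297, permutation). The relation to gastric epithelium gave 0.28 without the 2 farthest mice and rests on them, whereas that to mesothelium gave 0.51, 0.78 within 3wk and 0.45 within 5wk. Acta2 was higher with more smooth muscle (r = 0.49, rho = 0.53, adjusted p = 0.0464 and 0.0411, permutation), with 0.46 without the 2 farthest mice, 0.09 within 3wk and 0.58 within 5wk. The relations of Thy1 to T cells (r = 0.37, rho = 0.46, adjusted p = 0.0583 and 0.0462, permutation) and of Pdgfrb to pericytes (r = 0.39, rho = 0.30, adjusted p = 0.0583 and 0.236, permutation) were not called by r. Of the 22 relations, 9 were called by r. By rho alone, the relation of Thy1 to T cells was called. So was that of Thy1 to gastric epithelium (r = 0.35, rho = 0.43, adjusted p = 0.0703 and 0.0411, permutation).

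**Figure D4:**
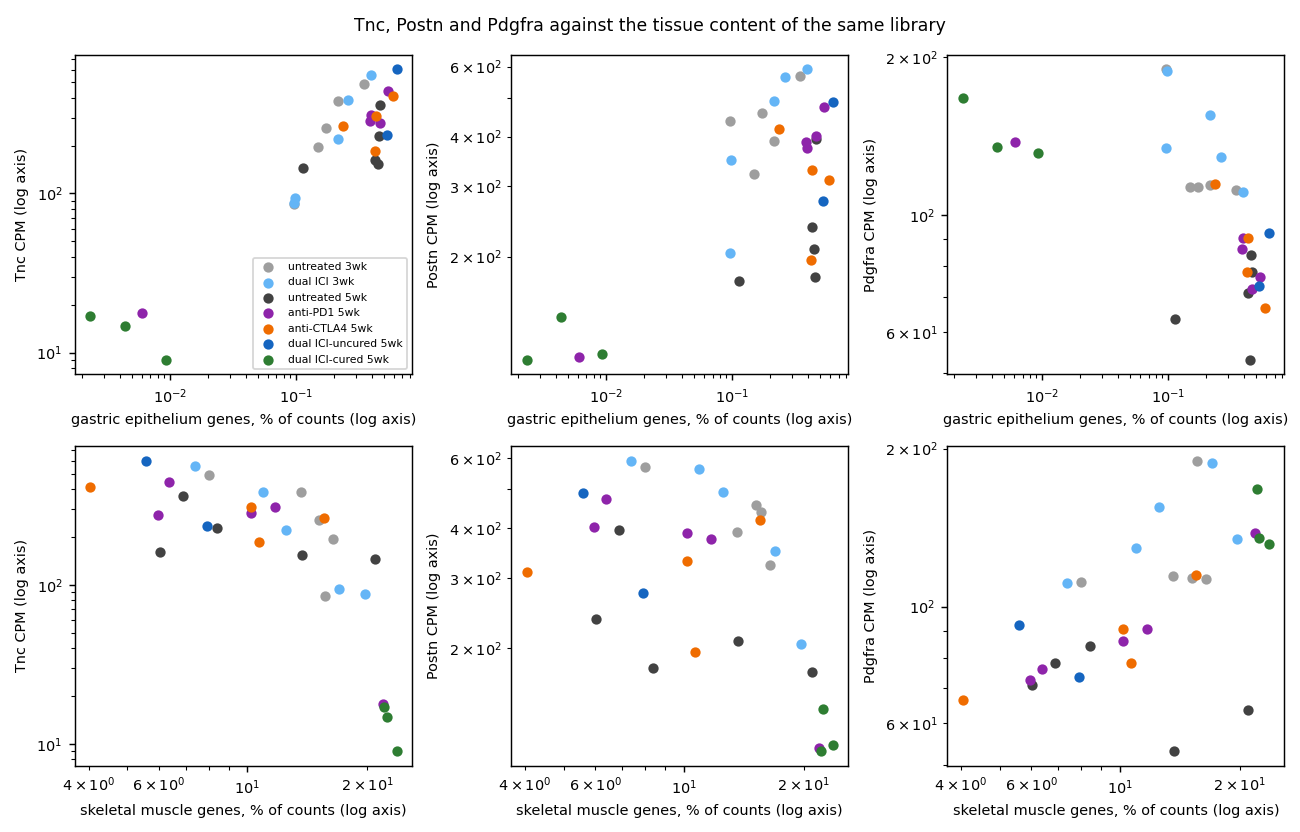
CPM of Tnc, Postn and Pdgfra (y axes, log scale) against the percent of a library's counts from gastric epithelium and skeletal muscle genes (x axes, log scale), 1 point per mouse, marked by group. Tnc and Postn are higher and Pdgfra lower toward the high end of the gastric epithelium axis, with the 3 cured mice and anti-PD1 mouse 5 together at its low end.

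The markers did not vary as 1 block. Over the 36 pairs, Pearson's r of log2 CPM with group means removed (29 mice) had a median of 0.15, with 7 pairs over 0.5 and 12 under 0, given as a description. Without anti-PD1 mouse 5 the median was 0.20, with 7 pairs over 0.5 and 7 under 0. The matrix genes varied together, with r = 0.83 for Postn and Tnc, 0.73 for Postn and Thbs2 and 0.66 for Tnc and Thbs2 (0.69, 0.63 and 0.52 without anti-PD1 mouse 5). Fap and Pdgfra also varied together (0.68, and 0.60 without that mouse), as did Pdpn and Thy1 (0.74, and 0.76 without it). The remaining pairs over 0.5 were Pdgfra and Pdgfrb (0.57, and 0.49 without that mouse) and Pdpn and Postn (0.501, and 0.265 without it). Pdgfra and Tnc varied in opposite directions (-0.55, and -0.33 without it). Other pairs of Fap moved with the same mouse. Without it, Fap and Pdpn went from 0.38 to 0.76 and Fap and Thy1 from 0.45 to 0.58. Fap and Postn went from -0.01 to 0.37. Fap was then closer to Pdpn than to Pdgfra.

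**Figure D5:**
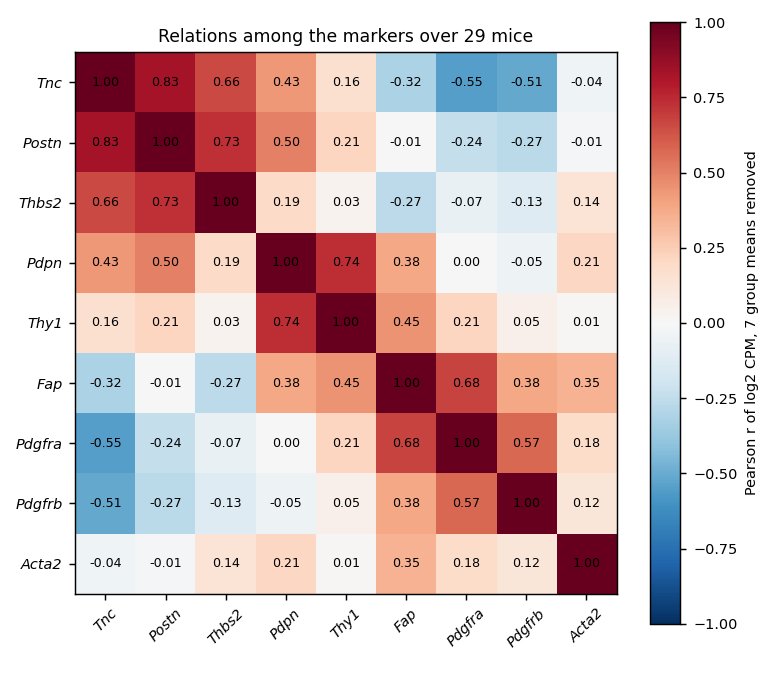
Pearson's r between the 9 markers over 29 mice, from log2 CPM with the 7 group means removed (color scale from -1 to 1). Tnc, Postn and Thbs2 form a block of values from 0.66 to 0.83. Pdpn and Thy1 are at 0.74, Fap and Pdgfra at 0.68, Pdgfra and Pdgfrb at 0.57, and Pdgfra and Tnc at -0.55. Without anti-PD1 mouse 5, Fap was closer to Pdpn (0.76) than to Pdgfra (0.60).

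The genes most like each marker among 16700, by the same r over 29 mice, differed by marker. For Postn they included Cthrc1 (0.88) and Lrrc15 (0.86), both on the myofibroblast CAF list, beside Litaf (0.87), and for Thbs2 Lox (0.86), Rab31 (0.84) and Tfpi2 (0.84). For Tnc they were Elk3 (0.97), F2rl1 (0.96) and Ube2c (0.96), the last an enzyme of the cell division cycle. For Fap they were Igsf10 (0.91), Naalad2 (0.90) and BC147527 (0.88), and for Pdgfra Frmd6 (0.86), Nid1 (0.82), a basement membrane protein, and Qpct (0.80). For Pdpn they were Myd88 (0.86), Gpx8 (0.84) and Il33 (0.83), for Thy1 Hunk (0.80), Ppp2r2b (0.76) and Pam (0.75), for Acta2 Ilk (0.76), Gng11 (0.73) and Pfdn4 (0.73), and for Pdgfrb Lgi3, Timp2 and Sult5a1 (each 0.80). Leaving out anti-PD1 mouse 5 took Cthrc1 to 0.78, Lox to 0.83, Elk3 to 0.93 and Igsf10 to 0.90.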

How the data were processed

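Bulk RNA-seq of 29 mice in 7 groups was analysed. The authors extracted RNA from stripped peritoneum, sequenced paired-end reads of 150 bp and counted reads per gene on mm10. Per the study's methods this was done with STAR and HTSeq, while the submitters' processing notes name STAR 2.7.0f and featureCounts 1.6.4, and strand setting and annotation are not given in the sources used here. What was deposited is a table of raw, unscaled counts for 24421 gene symbols, and 0 rows lacked a name.

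From these counts, edgeR 4.0.16 in R 4.3.3 was run over the whole table (two-sided glmQLFTest after glmQLFit, TMM scaling, filterByExpr on the groups, p-values adjusted by Benjamini-Hochberg, with a fit holding only the groups compared). Log2 CPM for scores and correlations used a prior count of 2. Tested on simulated data, the fits recovered 200 of 200 genes changed by 2 on the log2 scale in each comparison, with 6 to 13 false calls. In the simulation all genes had the same dispersion, all libraries had the same makeup, and only well-counted genes were changed. The real libraries differed in makeup, so this recovery does not give the power to detect changes in the markers. Libraries of a group differed by more than counting noise (smallest chi-square per gene 13.5 over 50 pairs). Permutations used scipy 1.17.1 and figures matplotlib 3.10.9. CPM intervals by counting are narrow at these totals, so the spread between mice sets the precision. The edgeR p-values weigh a difference between groups against that spread as estimated in the fit.

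The 9 markers and the 16 lists, of which 180 of 181 genes were in the table, were chosen with earlier results of these data known. List genes named are at most the 2 largest called changes per direction, list and comparison, or the 2 with the smallest p where none was called, plus the 3 genes most like each marker and the most abundant gene of a list. Cd3g, Pdgfb and Pdgfd were named outside this rule, after their values were seen, to complete small groups. Alternatives were DESeq2 1.42.0, upper-quartile scaling, no filter, a minimum of 10 counts throughout, removal of muscle genes and of genes over 1% of a library, 1 fit of all 29 libraries, a block on replicate number, omission of each mouse in turn, a prior count of 0.5 and the list median, and, chosen after seeing the data, raw library totals and tissue scores as covariates.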

Additional observations from a re-analysis of the deposited data

Results flagged for a closer look

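Of 66 sets of values (the 9 markers and 2 tissue shares in each group by label), 7 held a mouse that stood apart from the rest of its group by Dixon's criterion, which flags about 1 in 20 sets by chance. In untreated mice at 3wk, mouse 2 had 189.7 CPM of Pdgfra, where the next highest had 114 CPM. In untreated mice at 5wk, mouse 1 had 395 CPM of Postn, where the next had 237 CPM, and mouse 2 had 0.113% of its counts from gastric epithelium genes, where the next lowest had 0.428%.

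Anti-PD1 mouse 5 gave 3 of the 7. Its Postn was 112 CPM where the next lowest had 375 CPM, its Pdgfra 138 CPM where the next highest had 90.7 CPM, and its gastric epithelium share 0.00606% where the next lowest had 0.388%. The remaining value was Thbs2 in all dual ICI mice at 5wk, where uncured mouse 5 had 445.5 CPM and the next highest 209 CPM. No cause was tested for any of these.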

How the results depend on the processing

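Of 1614 refits of a single marker or relation, 1472 kept direction and side of the threshold, 31 lost a call, 14 gained a call and 97 turned sign. Of 347 recounts of called genes or markers, 34 moved by over 1.5 times. Of 126 group levels recomputed on raw totals or without muscle genes in the totals, 35 moved by more than the SD between mice. The cause of these changes was not tested.

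In dual ICI against untreated mice at 3wk, 89 called genes became 507 by DESeq2, 8 in the fit of all 29 libraries, 15 on raw library totals, 689 with the muscle score and 1826 with the gastric epithelium score as a covariate, and 6 to 119 with a mouse left out (6, 13, 23, 34 and 52 without untreated mice 5, 1, 4, 3 and 2, and 16 and 30 without dual ICI mice 3 and 5). DESeq2 called 56 genes in all dual ICI mice at 5wk, 18 in uncured mice and 29 for the interaction. Untreated mice at 5wk against 3wk had 1687, which became 3141 by DESeq2, 3165 with the muscle score, 641 with the gastric epithelium score, and from 654 (without untreated mouse 5 at 3wk) to 4915 (without untreated mouse 2 at 5wk), with 692, 735 and 854 without 3wk mice 2, 1 and 3 and 724 and 1078 without 5wk mice 5 and 4, and 1 of the 3 markers stayed called on raw totals and with the gastric epithelium score. Cured against untreated mice had 4491 (without cured mouse 3; 4515 without cured mouse 4) to 9388 genes (without untreated mouse 2) and 3 (without cured mouse 3 or 4) to 6 markers.

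On raw totals, log2 fold changes turned sign in cured against untreated mice for Fap (-0.11) and Pdgfrb (-0.30), in uncured against cured mice for Fap (0.50) and Pdgfrb (0.63), for Tnc at 3wk (0.008), in all dual ICI mice at 5wk for Pdgfrb (-0.0199) and Thbs2 (-0.0573), for Pdpn in uncured mice (0.0391), for Thbs2 over time (0.0779) and for Acta2 in the interaction (-0.0306). DESeq2 turned Acta2 in uncured mice (-0.0054) and with anti-PD1 (0.0021). The muscle score turned Postn at 3wk (-0.0551), Postn (0.15) and Thy1 (0.0588) in all dual ICI mice, Fap with anti-CTLA4 (-0.0055) and Pdpn over time (-0.0349). The gastric epithelium score turned Thy1 (0.0262) and Tnc (0.37) at 3wk, Postn (0.53), Thy1 (0.34) and Tnc (0.52) in all dual ICI mice, and Pdpn (-0.15) and Thy1 (-0.20) over time. The median over the list turned the relation of Thy1 to muscle (-0.046).

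With a mouse left out, uncalled markers crossed 0. At 3wk Fap ran from -0.0856 to 0.19, Postn from -0.12 to 0.20, Thy1 from -0.0478 to 0.0486, Tnc from -0.52 to 0.23 and Thbs2 from -0.19 to 0.0043. In all dual ICI mice Acta2 ran from -0.21 to 0.0163, Postn from -0.57 to 0.17, Thy1 from -0.29 to 0.0051, Tnc from -1.63 to 0.0394 and Thbs2 from -0.28 to 0.20. In uncured mice Acta2 ran from -0.52 to 0.38 and Thbs2 from -0.12 to 1.00. With anti-PD1 Acta2 ran from -0.10 to 0.073, and with anti-CTLA4 Fap from -0.26 to 0.24, Pdpn from -0.0907 to 0.22 and Thbs2 from -0.0009 to 0.26. Acta2 ran from -0.39 to 0.50 in uncured against cured mice. Over time Pdpn ran from -0.0505 to 0.0945, Acta2 from -0.077 to 0.0849 and Thbs2 from -0.17 to 0.0404, and in the interaction Acta2 from -0.0105 to 0.22, Postn from -0.60 to 0.13, Tnc from -1.58 to 0.23 and Thbs2 from -0.21 to 0.27. Where this left 1 uncured mouse, it was assumed to vary like the other group.

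Replicate numbers did not pair the mice (same-numbered deviations correlated from -0.65 to 0.70, and in no pair of groups was every mouse closest to its own number), so the replicate block only shares a number. These numbers are those of the sample titles. For dual ICI mice at 3wk the submitters' column names number the mice differently, and those numbers were not used. Under the block 209 genes were called at 3wk and 4016 genes and 3 markers in cured against untreated mice, and signs turned for Postn (-0.0542) and Thy1 (0.0004) at 3wk and for Fap (-0.0902) and Pdpn (-0.0193) with anti-CTLA4.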

Other observations

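Other stromal and immune genes can be set beside the markers. In dual ICI against untreated mice at 3wk, where no marker was called, the 4 list genes outside the T cell list with the lowest p-values were not called either. They were C1qb, a complement gene of macrophages (log2 fold change 0.76 ± 0.16 SE, edgeR adjusted p = 0.0585), Lep, the adipocyte hormone leptin (-2.24 ± 0.46, edgeR adjusted p = 0.0585), the chemokine gene Ccl7 (1.08 ± 0.26, edgeR adjusted p = 0.114) and Plin1, a coat protein of fat droplets (-1.12 ± 0.30, edgeR adjusted p = 0.153). In uncured against untreated mice at 5wk, the mesothelial genes Upk3b (-1.12 ± 0.34) and Rspo1 (-0.92 ± 0.30) each had an edgeR adjusted p of 0.735. The T cell genes Cd3e (1.23 ± 0.23) and Cd8b1 (1.58 ± 0.30) had lower p-values and went the other way. They were not called either, with the same edgeR adjusted p of 0.735.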
